A study of Mus musculus with 4 samples.

Results

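The interleukin-1 system of sorted basal keratinocytes was described here from 8 gene rows of the 24378 in each table, taken by name. They are the receptors *Il1r1* and *Il1r2*, the receptor antagonist *Il1rn*, the cytokines *Il1a*, *Il1b*, *Il18* and *Il33*, and *Pycard*. Of these 8 genes, 5 were measured with more than 1 molecule in the kept cells, *Il1b* had 1 molecule, and *Il1a* and *Il18* had none.

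Cells came from the back skin of 2 female mice aged 57 days that carried Ivl-CreERT2 and R26-tdTomato, in which the promoter of *Ivl* (Involucrin, a differentiation gene of keratinocytes) drives a tamoxifen-dependent Cre that switches on the red reporter tdTomato. All groups received tamoxifen (10 µg per g body weight into the peritoneum by the sample labels, while the study's methods state another dose) 2 days before the skin was taken. Live cells were sorted as basal cells of the epidermis between hair follicles (negative for Sytox blue and CD34, positive for CD49f and LY6A) and split into traced cells with tdTomato (Tom+) and cells without it (Tom-), the control group, which carried the same alleles and had the same treatment. Each sort gave 2 libraries from Fluidigm C1 chips of 96 wells. A tag in the labels is shared by 1 library of each sort, and libraries of the same tag are called run 1 or run 2 here, although what the tag marks is not given in the sources used here. After capture the 5′ ends of transcripts were counted as unique molecules (UMIs), 1 count for each captured mRNA molecule.

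In epidermis, interleukin-1 is a cytokine that keratinocytes hold as a precursor and release on damage. The signalling receptor IL1R1 passes it to the adaptor MYD88 and to NF-κB, the decoy receptor IL1R2 binds the same ligand without signalling, and the antagonist encoded by *Il1rn* blocks the signalling receptor. PYCARD (also called ASC) is the adaptor through which inflammasome sensors recruit caspase-1, the protease that matures interleukin-1β and interleukin-18, whereas interleukin-33 is a nuclear alarmin of barrier cells that acts through another receptor.

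A well was kept as a cell from 2000 gene UMIs, which left 161 of 384 wells, namely 35 and 58 cells in the Tom+ libraries of runs 1 and 2 and 20 and 48 cells in the Tom- libraries. These cells held 81630 to 305407 gene UMIs per library, with a median of 3225 to 4524.5 UMIs per cell. Levels are given as CPM, the UMIs of a gene per 1000000 gene UMIs of the same cells, and values of a pair of libraries follow the order of runs 1 and 2. The reporter was read in 16 and 29 Tom+ cells and in 0 and 3 Tom- cells, and *Ivl* itself had UMIs in Tom+ run 1 alone of the 4 libraries. All 161 cells had UMIs of at least 3 of 8 basal keratinocyte markers. The 8 suprabasal markers, summed per library, made up 17211 and 17550 CPM in the Tom+ libraries and 4398 and 2189 in the Tom- libraries. A cell was called Krt10-positive from 6 UMIs of *Krt10* after every cell had been thinned once to 2000 UMIs, where *Krt10* is the keratin that basal cells switch on as they start to differentiate. By that cut-off 25 of 35 and 37 of 58 Tom+ cells were Krt10-positive, and 3 of 20 and 3 of 48 Tom- cells were.

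*Il1r2*, the decoy receptor, lies at chr1:40074079-40125231 on the plus strand (GENCODE annotation of GRCm38) and shares its locus with 2 other annotated genes. The antisense gene among them, *Gm16894*, had 8 UMIs in 6 cells. *Pycard* lies at chr7:127989708-127993867 on the minus strand, where *Gm45205* overlaps it on the opposite strand. Whether the authors' counting used strand is not given in the sources used here, so reads of overlapping genes cannot be told apart. The sequences before the RefSeq starts of these genes are shown because they are the pair whose levels moved in opposite directions. The stretch of *Il1r2* is chr1:40085843-40085984 on the plus strand and stops where an annotated exon of another transcript begins, 108 bases before the RefSeq start, and that of *Pycard* is chr7:127993868-127994117 on the minus strand (both 5′ to 3′, RefSeq, GRCm38.p6). Capitals mark the palindromic E-box CACGTG, read on both strands.
Il1r2: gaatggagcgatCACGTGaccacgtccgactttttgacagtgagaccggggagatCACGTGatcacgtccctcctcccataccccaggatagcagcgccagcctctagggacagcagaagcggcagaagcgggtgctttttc
Pycard: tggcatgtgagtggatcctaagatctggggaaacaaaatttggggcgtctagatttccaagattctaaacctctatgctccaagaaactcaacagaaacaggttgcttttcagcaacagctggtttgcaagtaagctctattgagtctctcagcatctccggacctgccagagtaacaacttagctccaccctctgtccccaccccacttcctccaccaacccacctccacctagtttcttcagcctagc
The *Il1r2* stretch holds CACGTG at 2 places and the *Pycard* stretch at none. All 8 members matched the RefSeq promoter table, with 12 windows of 300 bases in all, and no window of another member holds CACGTG. Of all 32851 RefSeq windows, 7.15% hold this motif and 0.594% hold it at 2 or more places. Of the other motifs searched on both strands in the full windows, TGANTCA (7.81% of all windows) and TATAAA (13.6%) were absent from the windows of both genes, and none of the 3 motifs overlaps another in them. The motifs were chosen after the sequences had been seen, and a match describes letters only.

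*Il1r2* was lower in Tom+ cells. Its summed level was 63.6 (10 UMIs) and 91.7 (28 UMIs) CPM in the Tom+ libraries, and 257 (21 UMIs) and 314 (58 UMIs) in the Tom- libraries. The Tom+ and Tom- libraries did not overlap, as was true of 38.9% of the 3070 genes tested. The group means were 77.6 ± 19.9 (SD, n = 2 libraries) against 286 ± 40.3 (SD, n = 2), and the fitted difference was -1.89 (SE 0.40) on the log2 scale, adjusted p = 0.0151 by Benjamini-Hochberg from the quasi-likelihood test of edgeR. The fall was the same in sign within each run, with log2 ratios of -2.02 in run 1 and -1.78 in run 2. The call was lost without Tom+ run 1 (adjusted p = 0.158), without Tom- run 2 (0.190), from a minimum of 5000 UMIs per well (0.112), in sums of thinned counts (0.155) and without 30 cells that had markers of other types (0.0560), while the direction stayed in all 15 alternatives.

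*Il1r2* molecules were found in a minority of the cells of either sort. At the common depth of 2000 UMIs, 2 of 35 and 9 of 58 Tom+ cells had an *Il1r2* UMI (5.71% and 15.5%, with 95% Clopper-Pearson intervals of 0.70 to 19.2% and 7.35 to 27.4%), and 5 of 20 and 13 of 48 Tom- cells did (25% and 27.1%, intervals of 8.66 to 49.1% and 15.3 to 41.8%). At full depth the shares were 14.3% and 22.4% against 30% and 41.7%. The thinned share was 15.4 percentage points lower in Tom+ libraries, exact permutation p = 0.333, the smallest p that 2 against 2 libraries can give. In cells with any *Il1r2* UMI at full depth the mean was 2 and 2.15 UMIs in Tom+ and 3.5 and 2.9 in Tom- libraries, so Tom- cells were higher in the share of cells as well as in the molecules per cell with the transcript. These intervals cover counting error only.

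*Il1r1*, the receptor that signals, was near the limit of detection in every library. It had 3 and 8 UMIs in the Tom+ libraries and 5 and 4 UMIs in the Tom- libraries, or 19.1, 26.2, 61.3 and 21.7 CPM, and the groups overlapped. It did not pass the filter on low counts, and without that filter its log2 difference was -0.52 (SE 0.90, edgeR adjusted p = 0.920). Summed over all cells, *Il1r2* was at 161 CPM (117 UMIs) and *Il1r1* at 27.4 (20 UMIs), and 44 of 161 cells had the decoy receptor against 16 with the signalling one. UMIs of both were in 5 cells, near the 4.37 cells that the product of the shares of cells with each gene gives. The co-receptor gene *Il1rap*, which both receptors can recruit, had 23 UMIs in 16 cells.

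*Il1rn*, the antagonist, was expressed in both sorts, and no difference was called. Its level was 121 and 167 CPM in the Tom+ libraries (19 and 51 UMIs) and 98.0 and 119 in the Tom- libraries (8 and 22 UMIs). Tom+ run 1 and Tom- run 2 were almost level, with 121 against 119. The log2 difference was 0.36 (SE 0.43, edgeR adjusted p = 0.943). The share of cells with an *Il1rn* UMI ranged from 10 to 32.8% over the 4 libraries at the common depth, which did not separate the sorts.

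*Il33* was the cytokine of the 4 that was measured in these cells. It stood at 44.5 and 81.9 CPM in the Tom+ libraries (7 and 25 UMIs) and at 110 and 173 in the Tom- libraries (9 and 32 UMIs). Every Tom- library was above every Tom+ library, where 38.9% of the 3070 genes tested had no overlap in either direction. The log2 difference of -1.19 (SE 0.49) did not pass the threshold across all genes (edgeR adjusted p = 0.369). *Il1b* had 1 UMI, in a Krt10-negative cell of Tom- run 2 in which none of the Langerhans, T cell and macrophage or neutrophil markers had a UMI. *Il1a* and *Il18* had 0 UMIs in 161 cells, which allows a share of cells with a UMI of up to 1.86%. At this depth the ligands of *Il1r1* and *Il1r2* were therefore not detectable beyond that 1 molecule.

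*Pycard* was higher in Tom+ cells and was the member with the most molecules, 312 UMIs in 94 of 161 cells. Its level was 610 and 570 CPM in the Tom+ libraries (96 and 174 UMIs) and 196 and 141 in the Tom- libraries (16 and 26 UMIs). The sorts did not overlap, as was true of 38.9% of the 3070 genes tested. The group means were 590 ± 28.7 (SD, n = 2 libraries) and 168 ± 39.0 (SD, n = 2), and the fitted log2 difference was 1.81 (SE 0.34), edgeR adjusted p = 0.00675. Within runs 1 and 2 the log2 ratios were 1.64 and 2.02. The call stood without each library in turn and was lost in sums of thinned counts (adjusted p = 0.057), with a minimum of 5000 UMIs per well (0.103) and without the 30 cells with markers of other types (0.0568).

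*Pycard* also reached more cells. At the common depth 60% and 58.6% of Tom+ cells had a *Pycard* UMI (intervals of 42.1 to 76.1% and 44.9 to 71.4%), against 20% and 22.9% of Tom- cells (intervals of 5.73 to 43.7% and 12.03 to 37.3%). The share was thus 37.9 percentage points higher in Tom+ libraries (exact permutation p = 0.333). In cells with the transcript at full depth the mean was 3.84 and 3.78 UMIs in Tom+ and 2.67 and 1.53 in Tom- libraries.

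**Figure D1:**
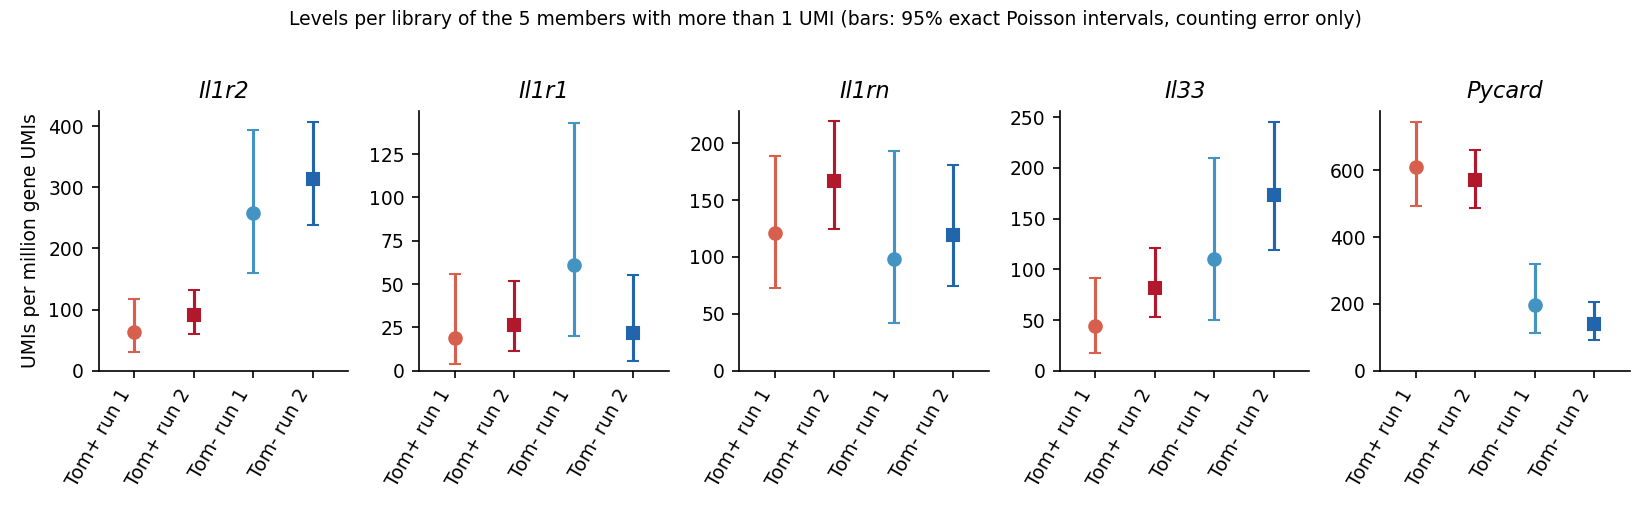
Level of each of the 5 members with more than 1 UMI (y axis, CPM) in the 4 libraries (x axis), as points with 95% exact Poisson intervals, which cover counting error only. *Il1r2* lies at 63.6 and 91.7 in Tom+ and 257 and 314 in Tom- libraries, *Pycard* at 610 and 570 against 196 and 141, and the intervals of *Il1rn* and *Il1r1* overlap across all libraries.

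Across the comparison of the sorts, 4 of the 8 members passed the filter on low counts, *Pycard* rose, *Il1r2* fell, and *Il1rn* and *Il33* were not called, against 1.24% of 3070 genes called in either direction (26 higher, 0.847%, and 12 lower, 0.391%). The ratio of the called pair restates these opposed differences in the same libraries and is no separate support for them. In log2 units the ratio of *Il1r2* to *Pycard* UMIs was -3.20 and -2.61 in the Tom+ libraries and 0.38 and 1.14 in the Tom- libraries. Decoy receptor molecules thus outnumbered *Pycard* molecules in each Tom- library and were outnumbered in each Tom+ library. In Tom- run 1 this order rests on 21 against 16 UMIs. The exact Poisson intervals overlapped there (159 to 393 against 112 to 318 CPM), so counting error does not settle the order in that library. Between the sorts the log2 ratio differed by -3.67 (exact permutation p = 0.333). The ratio of *Il1r2* to the 4 cytokines together, in which all but 1 of the cytokine UMIs were *Il33*, was 0.49 and 0.16 in Tom+ and 1.18 and 0.80 in Tom- libraries, a log2 difference of -0.67 (exact permutation p = 0.333).

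The same cells were then divided by *Krt10*, to see how the members followed the start of differentiation within each library. *Il1r2* was lower in Krt10-positive cells. It stood at 172, 146, 324 and 338 CPM in Krt10-negative cells of Tom+ run 1, Tom+ run 2, Tom- run 1 and Tom- run 2, and at 9.53, 66.8, 0 and 0 in Krt10-positive cells of the same libraries. In counts, Krt10-positive cells had 1 and 14 *Il1r2* UMIs in the Tom+ libraries and none in the 6 such cells of the Tom- libraries. Against the 3 UMIs per library that a count of 0 allows, Krt10-negative levels of the Tom- libraries were 1.82-fold higher in run 1 and 1.44-fold in run 2. These folds leave out counting error in the Krt10-negative counts and are not lower bounds. The exact Poisson intervals of Krt10-negative and Krt10-positive cells overlapped in both Tom- libraries. They were 201 to 495 against 0 to 219 CPM in run 1, and 256 to 436 against 0 to 288 in run 2. The Krt10-positive level was the lower one in 4 of 4 libraries, as a common direction in all libraries was seen for 27.8% of the 1206 genes tested.

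In the fit with library as a block, *Il1r2* differed by -2.35 (SE 0.63) on the log2 scale between Krt10-positive and Krt10-negative cells (edgeR adjusted p = 0.0290), where 6.72% of 1206 genes were called, 3.98% as higher and 2.74% as lower in Krt10-positive cells. The value was -4.58 without Tom+ run 2, the library with 14 of the 15 *Il1r2* UMIs of Krt10-positive cells. The call was lost without Tom+ run 1 (adjusted p = 0.170), without Tom- run 1 (0.0723), without Tom- run 2 (0.0878), in the Tom+ libraries alone (log2 difference -1.94, adjusted p = 0.257) and with the cut-off for *Krt10* at 1 UMI (log2 difference -0.53, adjusted p = 0.763). *Il1r2* was in 37 of 93 Krt10-negative and 7 of 68 Krt10-positive cells at full depth.

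*Pycard* was higher in the Krt10-positive cells of each library, as a common direction in all libraries was seen for 27.8% of the 1206 genes tested. From Krt10-negative to Krt10-positive cells it went from 420 to 705 CPM in Tom+ run 1, from 188 to 745 in Tom+ run 2, from 61.7 to 713 in Tom- run 1 and from 116 to 469 in Tom- run 2, or 1.68-, 3.97-, 11.6- and 4.03-fold. The Krt10-positive levels of the Tom- libraries rest on 12 and 6 UMIs. Exact Poisson intervals of Krt10-negative and Krt10-positive cells overlapped in Tom+ run 1 (263 to 636 against 554 to 886 CPM). They also overlapped in Tom- run 2 (71.1 to 180 against 172 to 1021). The fitted log2 difference was 1.77 (SE 0.36, edgeR adjusted p = 0.00447). In the Tom+ libraries alone it was 1.35 (adjusted p = 0.0905). The call was also lost in sums of thinned counts (adjusted p = 0.168), with the cut-off for *Krt10* at 1 UMI (0.275) or at 12 UMIs (0.149) and without a filter on low counts (0.0545). Of the 8 members, *Il1r2* and *Pycard* alone passed the filter on low counts in this comparison.

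**Figure D2:**
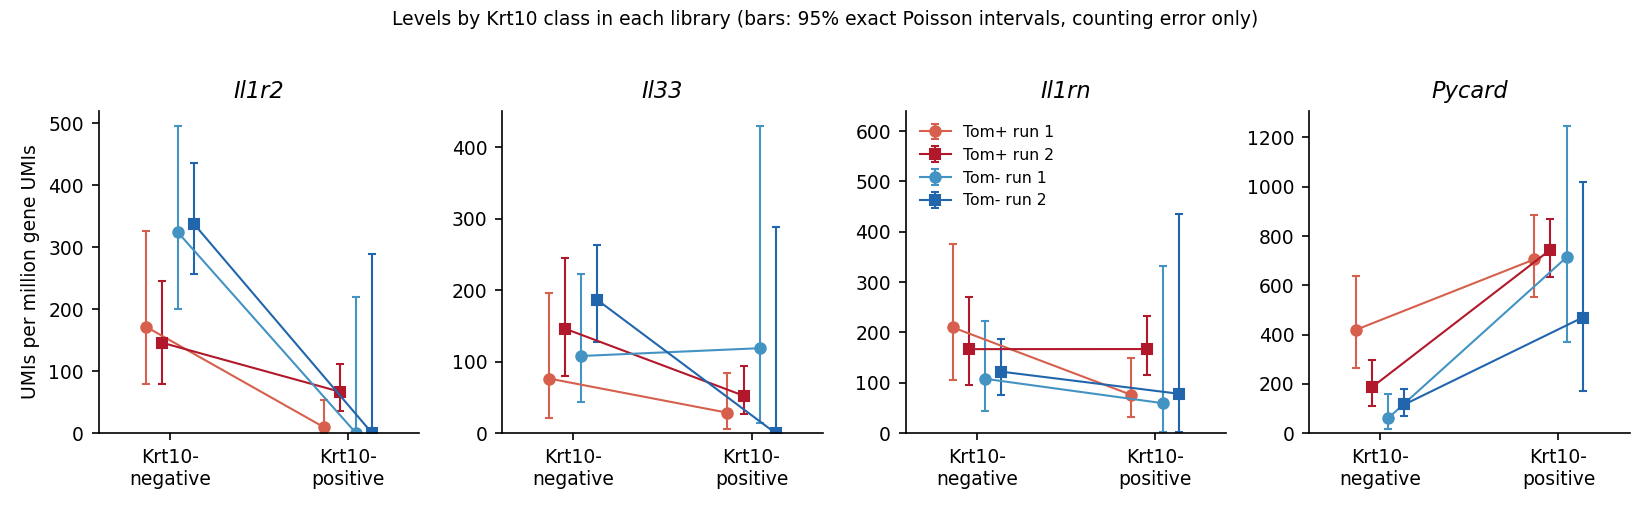
Levels of *Il1r2*, *Il33*, *Il1rn* and *Pycard* (y axis, CPM) in Krt10-negative and Krt10-positive cells (x axis), with a line for each library and 95% exact Poisson intervals for counting error. *Il1r2* falls and *Pycard* rises along each of the 4 lines, the Tom- points on the right rest on 3 cells each, *Il33* has lines in both directions, and *Il1rn* is level in Tom+ run 2.

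*Il33* and *Il1rn* had too few molecules in this split to be tested with the filter. *Il33* went from 76.4 to 28.6 CPM in Tom+ run 1, from 146 to 52.5 in Tom+ run 2, from 108 to 119 in Tom- run 1 (7 and 2 UMIs) and from 186 to 0 in Tom- run 2 (32 and 0 UMIs). The 3 UMIs that a count of 0 allows would put Tom- run 2 above its Krt10-negative level, so a fall was not detectable there at this depth. The log2 difference was -1.45 (SE 0.71) without the filter, with edgeR adjusted p = 0.988. *Il1rn* went from 210 to 76.3, from 167 to 167, from 108 to 59.4 and from 122 to 78.2 CPM in the same order of libraries. Its log2 difference without the filter was -0.72 (SE 0.61, edgeR adjusted p = 0.988). *Il1r1* had 9 UMIs in Krt10-negative and 11 UMIs in Krt10-positive cells, too few to order.

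Levels along *Krt10* were described with 3 grades of thinned *Krt10* UMIs, summed over all libraries. *Pycard* was at 169 CPM in the 56 cells without *Krt10*, at 163 in the 37 cells with 1 to 5 UMIs and at 721 in the 68 cells with 6 or more. *Il1r2* was at 280, 248 and 43.6 CPM in the same grades. Neither gene moved far between cells without and with a little *Krt10*, and each differed in the highest grade. *Il33* was at 164, 129 and 46.5 CPM, and *Il1rn*, at 183, 95.7 and 131, had no such order. The grades mix libraries, since 2 of 58 cells of Tom+ run 2 and 37 of 48 cells of Tom- run 2 had no *Krt10* UMI.

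Within Krt10-negative cells the sorts were compared again, so that both held cells of 1 class. *Il1r2* was at 172 and 146 CPM in Tom+ and 324 and 338 in Tom- libraries, and *Pycard* at 420 and 188 against 61.7 and 116. The sorts did not overlap for either gene, as was true of 32.2% of the 1318 genes tested there. The log2 differences were -1.13 (SE 0.46) for *Il1r2* and 1.51 (SE 0.55) for *Pycard*, and neither passed the threshold (edgeR adjusted p = 0.732 and 0.696), in a comparison with 0.303% of 1318 genes called. *Il1rn* (0.60, SE 0.56) and *Il33* (-0.46, SE 0.60) were tested there and were not called. The Krt10-negative cells of the Tom+ libraries still had more suprabasal transcripts, 2234 and 3578 CPM against 895 and 739, and the part of this in the member levels was not tested. The log2 ratio of *Il1r2* to *Pycard* in these cells restates their levels. It was -1.24 and -0.35 in Tom+ and 2.26 and 1.51 in Tom- libraries (difference -2.68, exact permutation p = 0.333).

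Whether the change with *Krt10* differed between the sorts was tested as an interaction. No gene of 1206 was called (0.0%), with 57 at an unadjusted p under 0.05 in edgeR, and no other tool was run on it. For *Pycard* the interaction was -1.07 (SE 0.74, edgeR adjusted p = 0.897). For *Il1r2* it had the same adjusted p, and its fitted size has no meaning as a fold because the Krt10-positive Tom- cells were at 0. The Krt10-positive class of the Tom- libraries held 6 cells in all.

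**Figure D3:**
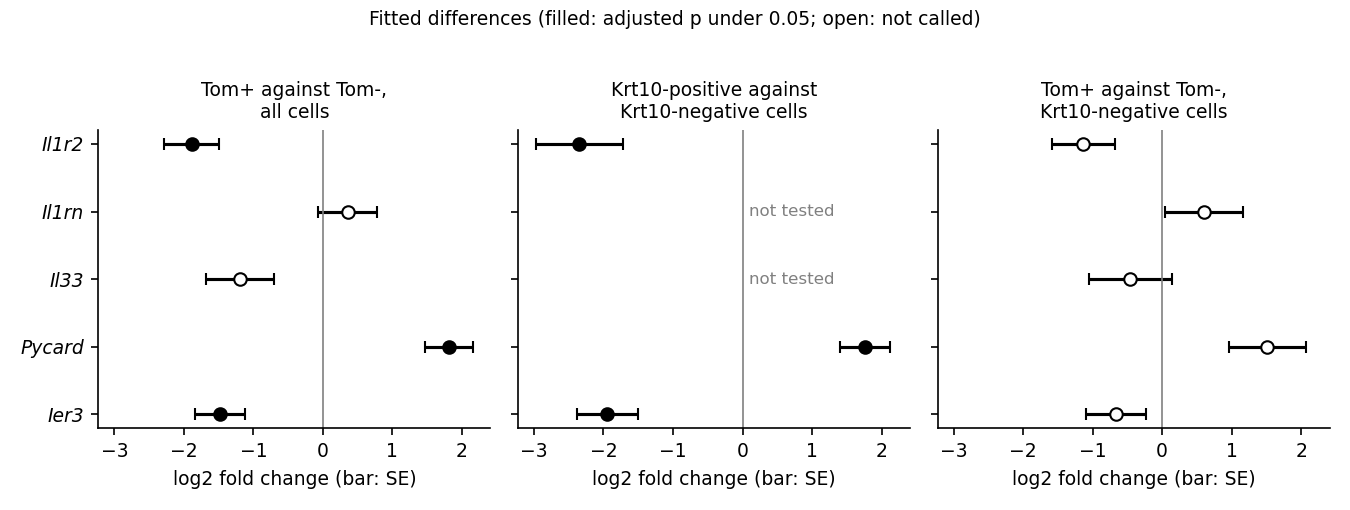
Fitted log2 fold change with its SE (x axis) of the tested members and *Ier3* (y axis) in 3 comparisons (panels), filled where the adjusted p is under 0.05. *Il1r2* (-1.89 and -2.35) and *Pycard* (1.81 and 1.77) are filled on opposite sides of 0 in the first and middle panels, and no gene is filled in the panel of Krt10-negative cells.

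Cell by cell, fewer cells over all libraries had both *Il1r2* and *Pycard* than had either alone. At full depth 19 of 161 cells had UMIs of both genes, 25 had *Il1r2* without *Pycard*, 75 had *Pycard* without *Il1r2* and 42 had neither. By library, the cells with both, with *Il1r2* alone and with *Pycard* alone numbered 3, 2 and 22 in Tom+ run 1 and 11, 2 and 35 in Tom+ run 2. They numbered 0, 6 and 6 in Tom- run 1 and 5, 15 and 12 in Tom- run 2. Most *Il1r2* cells of the Tom+ libraries also had *Pycard* (60% and 84.6%), near the 71.4% and 79.3% of all Tom+ cells that had it. In the Tom- libraries 0% and 25% of *Il1r2* cells had *Pycard*, beside 30% and 35.4% of all cells.

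The keratins of the 4 kinds of cells were read over all libraries and then within them. Over all libraries, the median of thinned *Krt10* UMIs was 0 in cells with *Il1r2* alone, 4 in cells with both, 12 in cells with *Pycard* alone and 1 in cells with neither. The median of thinned *Krt14* UMIs, a keratin of basal cells, was 26, 28, 3 and 26 in the same order. These orders mix libraries and did not hold within each of them. In Tom- run 2 the *Krt10* median was 0 in all 4 kinds, and the *Krt14* medians were 26, 31, 23.5 and 26. In Tom+ run 1 the *Krt10* medians were 3, 0, 13 and 15.5, so the cells with neither gene were the highest. Cells with both genes had a higher total (median of 4257 UMIs) than cells with *Il1r2* alone (3226), and the part of depth in this was not tested. At the common depth 9 cells had both genes, 20 had *Il1r2* alone and 61 *Pycard* alone.

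**Figure D4:**
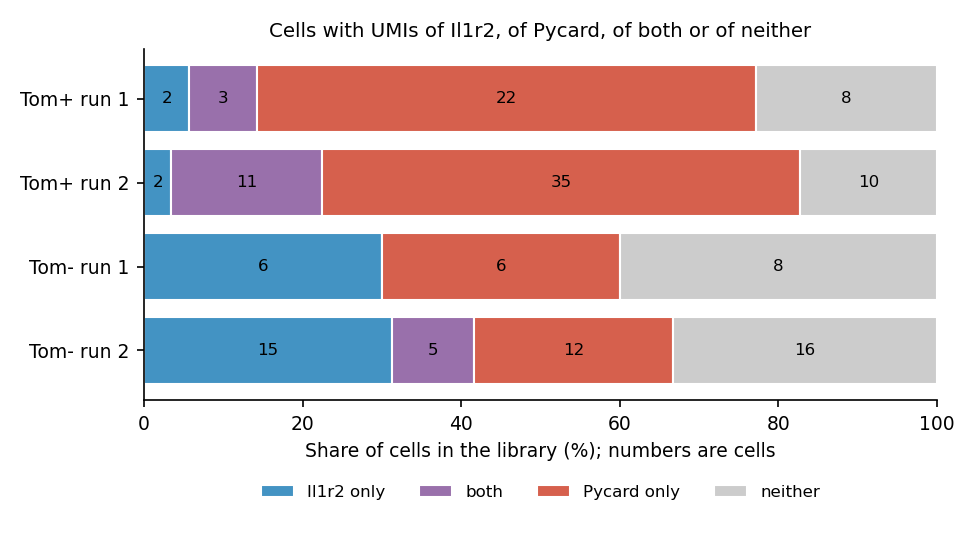
Share of cells (x axis, percent of the library's kept cells, with the number of cells written in each segment) with UMIs at full depth of *Il1r2* alone, both genes, *Pycard* alone or neither, for the 4 libraries (y axis). Cells with *Il1r2* alone are 2 and 2 in Tom+ against 6 and 15 in Tom- libraries, and cells with *Pycard* alone are 22 and 35 against 6 and 12.

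Cells with *Il33* were counted among those with *Il1r2* and those with *Pycard*. At full depth 22 of the 44 cells with *Il1r2* also had *Il33* (50% of them, and 43.1% of the 51 *Il33* cells), against 21 of the 94 cells with *Pycard* (22.3% of them, and 41.2% of the *Il33* cells). By library, *Il33* was in 0 of 5, 7 of 13, 2 of 6 and 13 of 20 *Il1r2* cells of Tom+ run 1, Tom+ run 2, Tom- run 1 and Tom- run 2. It was in 1 of 25, 14 of 46, 2 of 6 and 4 of 17 *Pycard* cells in the same order. Of all cells, 11.4%, 32.8%, 35% and 43.8% had *Il33* in that order, and 31.7% did over all libraries. At full depth the share with *Il33* was thus higher among *Il1r2* cells than among *Pycard* cells in both libraries of run 2. It was the same in Tom- run 1 and lower in Tom+ run 1. At the common depth the order was kept in Tom- run 2 (46.2% against 9.09%) and not in Tom+ run 2 (11.1% against 11.8%). The thinned shares were 20% against 0% in Tom- run 1 and 0% for both genes in Tom+ run 1. Over the 161 cells, 18 had none of the members, 63 had 1, 47 had 2, 30 had 3 and 3 had 4. These are counts of cells within libraries, which are not replicates, and no test was made on them.

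Over the 8 sums of library and Krt10 class, *Il1r2* and *Pycard* were opposed, with a Pearson correlation of -0.782 on the log2 scale, as a description over sums that share libraries and depth. The 5 genes of 1205 most like *Il1r2* over these sums were *Slc6a6* (r = 0.995), the taurine transporter, *Wls* (0.991), which carries Wnt proteins to the cell surface, one row of the chemokine gene *Ccl27a* (0.962), *Serpinb6a* (0.952) and *Thbs1* (0.9498), which encodes the matrix protein thrombospondin-1. *Slc6a6* stood at 153, 177, 432 and 320 CPM in Krt10-negative cells of the Tom+ and then the Tom- libraries, and at 9.53, 71.6, 0 and 0 in Krt10-positive cells, close to the levels of *Il1r2*. The sums at 0 hold 3 cells each. *Serpinb6a* and *Thbs1* were also at 0 in both, while *Wls* (59.4 and 78.2 CPM) and the *Ccl27a* row (1724 and 3518) were not. The part of these zeros in r was not tested. Those most like *Pycard* were the differentiation keratin *Krt77* (0.956), the cell cycle inhibitor *Cdkn1a* (0.948), *Oas1f* (0.948), the sphingolipid synthesis gene *Sptlc3* (0.928) and *Dmkn* (0.925), the gene of the epidermal protein dermokine. *Krt77* stood at 115, 125, 15.4 and 23.3 CPM in Krt10-negative and at 467, 506, 416 and 313 in Krt10-positive cells.

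The rest of the pathway was read from lists of 70 genes, of which 65 are in the tables. Among the other ligands and antagonists of the family, *Il1f5*, the interleukin-36 receptor antagonist, had 4 and 7 UMIs in the Tom+ and 1 and 1 in the Tom- libraries, *Il1f9*, an interleukin-36 ligand, had 5, and *Il1f6* and *Il1f10* had none. The interleukin-33 receptor gene *Il1rl1* had 0 UMIs in the 161 cells. None of the 11 ligands and antagonists or the 8 receptors passed the filter on low counts.

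Of the inflammasome list the sensors and enzymes that PYCARD works with were scarce. *Casp1*, caspase-1, had 2, 7, 0 and 8 UMIs in the Tom+ and then the Tom- libraries. Of the sensors, *Nlrp3*, *Nlrp1a* and *Mefv* had none, *Nlrp1b* 2, *Aim2* 1, *Nlrc4* 3, *Nlrp6* 1 and *Nlrp10* 18, while the pore-forming *Gsdmd* had 3. *Pycard*, with 312 UMIs, thus stood far above each of these genes in the same cells. In the list, 2 of 16 genes were tested between the sorts (*Capn1*, a calpain, and *Nek7*), and neither was called.

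Genes of signalling and response were the better measured part. Between the sorts 14 pathway genes of the 70 were tested. The log2 difference was below 0 for 13 of them, as it was for 1550 of all 3070 genes tested. It was above 0 for 1, a response gene at 1.53, the largest change of the list. The median was -0.33, against -0.01 over all genes tested. Of the 14 genes 1 was called, beside 1.24% of the 3070. That gene was *Ier3*, an early response gene of NF-κB and stress signalling, at 134 and 118 CPM in the Tom+ libraries and 282 and 379 in the Tom- libraries. Its log2 difference was -1.48 (SE 0.37, edgeR adjusted p = 0.0469), and the call was lost in 11 of 15 alternatives, among them each without 1 library other than Tom- run 1 (adjusted p = 0.226 without Tom+ run 1, 0.285 without Tom+ run 2 and 0.452 without Tom- run 2). Without the 30 cells with markers of other types the difference was -0.74 (adjusted p = 0.615). *Nfkbia*, the NF-κB inhibitor that the pathway itself induces, was almost level at 1399, 1680, 1384 and 1685 CPM in the same order. It is the response gene with the most molecules, 1157 UMIs in 139 cells.

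By *Krt10* class 6 pathway genes were tested and *Ier3* alone was called, as lower in Krt10-positive cells. Of all 1206 genes tested there, 6.72% were called, 2.74% as lower. *Ier3* was thus lower in this comparison as well. It stood at 248, 240, 324 and 407 CPM in Krt10-negative cells of the Tom+ and then the Tom- libraries, and at 76.3, 62.0, 119 and 0 in Krt10-positive cells. The log2 difference was -1.95 (SE 0.44, edgeR adjusted p = 0.0102), and the call was lost in 5 of 17 alternatives. With the cut-off for *Krt10* at 1 UMI the log2 difference was -0.0092 (adjusted p = 0.999). The others were without Tom+ run 1 (adjusted p = 0.0528), in the Tom+ libraries alone (0.0863), without the 30 cells with markers of other types (0.0515) and without a filter on low counts (0.0546). Among Krt10-negative cells 9 pathway genes were tested between the sorts and none was called, with *Tollip* (-0.94), *Ier3* (-0.67) and *Capn1* (-0.20) lowest and *Ptgs2* (0.76), *Icam1* (0.22) and *Tnfaip3* (0.04) highest in log2 difference. In the interaction 6 were tested and none was called, with values from -0.46 for *Tnfaip3* to 0.78 for *Ier3*.

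Few cells had markers of other types, apart from markers of the hair follicle opening. At least 3 markers were found in 3 cells for T cells, in 2 cells for Langerhans cells and in 0 cells for macrophages or neutrophils, mast cells, melanocytes, fibroblasts, endothelium, hair follicle bulge and sebaceous gland. The T cell markers summed to 12.7 and 229 CPM in the Tom+ libraries and to 0 and 190 in the Tom- libraries, and the Langerhans markers to 44.5, 75.3, 110 and 10.8. The 3 T cell-marked cells held 7 of the 312 *Pycard* UMIs and no *Il1r2* UMI. *Krt79*, a marker of the hair follicle opening, had UMIs in 5 cells of Tom+ run 2 and 2 cells of Tom- run 2, with 16 *Pycard* and 0 *Il1r2* UMIs. A broader list of infundibulum markers, with 1127 and 1149 CPM in Tom- and 470 and 1978 in Tom+ libraries, had at least 3 markers in 26 cells. Those 26 cells held 50 *Pycard* and 10 *Il1r2* UMIs. When all 30 cells with at least 3 markers of any other type were left out, the log2 differences between the sorts were -2.01 for *Il1r2* and 1.67 for *Pycard*, and both calls were lost (edgeR adjusted p = 0.0560 and 0.0568).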

How the data were processed

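The files hold raw counts of UMIs, which the authors deposited as a gene by well matrix for each library (STRT, 5′ ends, Fluidigm C1). The submitters' processing notes name GRCm38 and mm10, and the aligner and counter are not given in the sources used here. Spike-in and reporter rows were kept out of totals. Well names are chip positions, so all 96 are shared by the 4 tables and mark no shared cells. Very high wells were kept, and no doublet caller was run.

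The members and lists were chosen with earlier results of these data known. Pathway genes are named where they passed a test, otherwise the 3 highest and 3 lowest tested in a comparison. Other genes whose counts or levels are given were named after their values were seen. Counts of cells with at least 2000 UMIs were summed per library (or per library and Krt10 class) and compared in R 4.3.3 by the quasi-likelihood test of edgeR 4.0.16 after filterByExpr and TMM scaling, with p adjusted by Benjamini-Hochberg over all genes tested and called under 0.05, without a covariate between sorts and with library as block between classes. The procedure was tested on simulated counts. Shares used counts thinned to 2000 UMIs (seed 1, NumPy 2.4.6), levels have exact Poisson and shares Clopper-Pearson 95% intervals, and ratios had 0.5 added to each sum. Libraries were compared by exact two-sided permutation tests. Which mouse gave which library is not stated, so p-values measure the spread between these libraries, which may be technical. Replicate libraries differed by more than counting noise (chi-square per degree of freedom of 2.37 for Tom+ and 2.30 for Tom-). DESeq2 1.42.0 and limma 3.58.1 (voom) served as alternatives. The published datasets merged with these cells in the study were not analysed here.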

Additional observations from a re-analysis of the deposited data

Results flagged for a closer look

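*Il33* had 6 UMIs in 4 of the 54 wells that held some gene UMIs but fewer than 2000 and were left out of all comparisons. This was more than the 3 counts that a count of 0 allows, and all 6 were in wells of Tom- run 2. Of the other members, *Pycard* had 3 UMIs in these wells, *Il1r2*, *Il1r1* and *Il1rn* 2 each and *Il1a* 1.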

How the results depend on the processing

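Between the sorts 38 genes were called, with 27 to 65 when 1 library was left out, 8 from a minimum of 5000 UMIs, 24 in thinned counts and 7 without the 30 cells with markers of other types. Between Krt10 classes 81 were called, with 54 to 92 when 1 library was left out, 30 from a minimum of 5000 UMIs, 45 in thinned counts, 14 with a Krt10 cut-off of 1 UMI, 52 in Tom+ libraries alone and 133 with the class from all Krt10 UMIs, an alternative chosen after seeing the data. Among Krt10-negative cells 4 were called, with 1 to 3 when 1 library was left out, 0 from a minimum of 5000 UMIs, in thinned counts and with the cut-off at 1 UMI, and 2 from a minimum of 1000 UMIs, with the class from all Krt10 UMIs, in DESeq2 and without a filter. The interaction, whose alternatives were all chosen after seeing the data, gave 0 to 1 calls when 1 library was left out, 3 without cells with other markers, 1 with the class from all Krt10 UMIs and 2 without a filter. Where a setting left 1 library in a sort, that library was assumed to vary like the others.

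With the shared tag (run) as replicate block, 116 genes were called between the sorts, *Il1r2* and *Pycard* among them (edgeR adjusted p = 0.000178 and 1.69e-06), and 0 among Krt10-negative cells. What the tag marks is not given in the sources used here. The deviations of libraries with the same tag had a correlation of 0.1306 over 3070 genes, a single value for 2 pairs, which does not settle whether the tag pairs them.

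Of the fold changes tested, *Il1r2* and *Pycard* kept their direction in all alternatives. The sign turned for *Il1rn* between the sorts from a minimum of 5000 UMIs (-0.045). Among Krt10-negative cells, leaving out 1 library gave -1.82 to 0.89 for *Icam1*, -0.61 to 1.61 for *Ptgs2* and -0.11 to 0.18 for *Tnfaip3*, which was also -0.079 without cells with other markers and -0.75 with the cut-off at 1 UMI. In the interaction the same ranges were -0.35 to 6.69 for *Ier3*, -0.81 to 2.05 for *Nfkbia*, -0.22 to 1.12 for *Socs3* and -0.92 to 0.026 for *Tnfaip3*. There the sign also turned without cells with other markers for *Nfkbia* (-0.071) and *Socs3* (-0.21), without cells with *Krt79* or immune markers for *Nfkbia* (-0.021) and *Socs3* (-0.037), with the class from all Krt10 UMIs for *Nfkbia* (-0.15) and *Tollip* (-0.23), and without a filter for *Nfkbiz* (0.27) and *Tnfaip3* (0.16). None of these was called. The difference in the share of cells, -8.90 percentage points for *Il1r1* and 10.2 for *Il1rn*, turned for *Il1r1* with at least 2 UMIs (0.862) and from 5000 UMIs (2), and for *Il1rn* from 5000 UMIs (-1.33). With 1 library left out it ranged from -20.3 to -10.5 for *Il1r2*, -13.3 to -4.53 for *Il1r1*, 0.952 to 19.4 for *Il1rn*, 36.4 to 39.3 for *Pycard* and -26.3 to 1.18 for *Il33*, which turned without Tom- run 2. The log2 ratio of *Il1r2* ranged from -4.05 to -3.29 against *Pycard* and from -0.86 to -0.48 against the cytokines. The cause of these changes was not tested. In each sort there were 2 libraries, and members with under 30 UMIs are limited by counting.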
